A study of Sus scrofa with 6 samples.

Results

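The genes described here are those of sarcoplasmic reticulum calcium cycling in the heart muscle of minipigs with a constricted descending aorta. The 10 genes were ATP2A2, PLN, SLN, RYR2, CASQ2, TRDN, ASPH, HRC, SLC8A1 and CAMK2D, and every row of the deposited table whose gene symbol was one of these was taken, whatever its values. Of the 10 genes, 9 had a row among the 13288 genes listed. PLN, which encodes phospholamban, was not analysed here, so the ratio of ATP2A2 to PLN was not computed.

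In each heartbeat, calcium that enters a cardiomyocyte opens ryanodine receptors, and calcium stored in the sarcoplasmic reticulum is released to the myofilaments. Relaxation follows when the SERCA pump returns calcium to the store and the sodium-calcium exchanger moves the rest out of the cell. Slower reuptake and leak through the ryanodine receptor are well-known features of failing hearts.

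RNA sequencing was performed on heart ventricular tissue of male Tibetan minipigs, in 3 sham animals and 3 animals with descending aortic constriction (DAC). The minipigs weighed 25 to 30 kg, and their age is not given in the sources used here. The sham animals underwent thoracotomy without constriction of the aorta, and tissue was collected 12 weeks after surgery. The study assigned 5 minipigs to each group, used a single breed, and its labels do not say which part of the ventricle was sampled. The animals are named below as sham replicates 1 to 3 and DAC replicates 4 to 6.

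Levels are FPKM, fragments scaled by transcript length and by the mapped fragments of the library, so that they can be compared between genes. Differences between the groups are DAC minus sham on the log2(FPKM + 1) scale, which understates the change of weakly expressed genes. They were tested with limma's moderated test over the 11029 genes that reached 1 FPKM in 3 or more of the 6 minipigs, and a gene was called at an unadjusted P under 0.05, the study's threshold. No gene of the 11029 (0.00%) passed an adjusted P of 0.05, and the smallest adjusted P in limma's test was 0.106. At the unadjusted threshold limma called 939 genes, or 8.51%, of which 358 were higher and 581 lower in the DAC group.

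The tissue carried transcripts of cardiomyocyte marker genes. The summed level of 12 rows for 9 cardiomyocyte marker genes was 14673 to 15716 FPKM in the sham group and 14065 to 16832 FPKM in the DAC group. RYR2 was itself on that list and was the only marker called. Mitochondrially encoded genes took 24 to 25.3% of the summed FPKM in the sham group and 27.1 to 32.8% in the DAC group, with the highest share in DAC replicate 5. Fibroblast markers summed to 479 to 553 FPKM in the sham group and 683 to 776 FPKM in the DAC group. Of the 7, 4 were called higher, the collagen genes COL1A1, COL1A2 and COL3A1 and also LUM. DCN, PDGFRA and TCF21 were not called, with log2 differences of -0.01, 0.24 and -0.02 in that order. In bulk tissue, fewer cells of a type and less RNA per cell cannot be told apart, and the part of these shifts in the results below was not tested beyond the rescaled values given with them.

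Of the 9 calcium cycling genes, 1 fell, RYR2, and none was called higher. All 9 passed the filter on low values. Over all genes tested, 5.27% were called lower and 3.25% higher, so that 1 gene of 9 in one direction is close to the share seen across the transcriptome. By mean log2 level, 5 of the 9 were higher and 4 lower in DAC animals. The median difference was 0.04, against -0.02 over all genes tested. In none of the 9 genes were the groups separate, whereas 14.9% of all genes tested had groups that did not overlap, 6.01% with the DAC animals higher and 8.91% with the DAC animals lower.

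**Figure D1:**
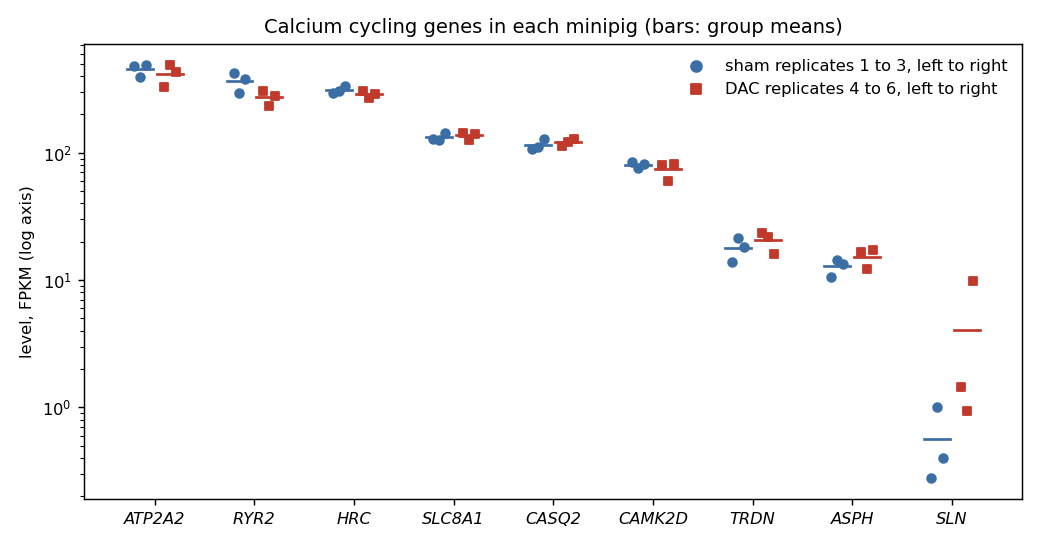
Level of each calcium cycling gene in each of the 6 minipigs, in FPKM on a log axis, with sham animals as circles, DAC animals as squares and bars at the group means. The groups overlapped for each of the 9 genes, and the levels spanned from 0.278 FPKM for SLN to 492 FPKM for ATP2A2.

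ATP2A2 encodes SERCA2, the calcium pump of the cardiac sarcoplasmic reticulum. It was the most abundant of the 9 genes, at ranks 51 to 66 of the 13288 genes in the 6 minipigs. Its level was 483, 396 and 485 FPKM in sham replicates 1 to 3 and 330, 492 and 433 FPKM in DAC replicates 4 to 6. Both the lowest and the highest of these values were in the DAC group. The group means were 455 ± 51.1 FPKM in the sham group and 418 ± 81.8 FPKM in the DAC group (SD, n = 3 each). The log2 difference was -0.13 (SE 0.17, 95% interval -0.53 to 0.27), with P = 0.462 and adjusted P = 0.847 in limma's test and an exact permutation P of 0.700. As a fold, the interval ran from 0.691 to 1.21, so a moderate change of the pump's transcript in either direction lies inside it. Without DAC replicate 4, the difference changed sign to 0.03.

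ATP2A2 lies on chr14:31674757-31744973 of Sscrofa11.1, on the plus strand (ENSSSCG00000034386). Its span overlaps that of ANAPC7 on the opposite strand, which had 3.63 to 4.41 FPKM in the 6 minipigs. The handling of strand and of shared reads in the quantification is not stated, but the neighbour's level was small beside that of ATP2A2.

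SLN encodes sarcolipin, a small membrane protein that inhibits the SERCA pump and is known as an atrial gene in the heart. It was the least abundant of the 9 and the most variable. Its level was 0.278, 1.01 and 0.403 FPKM in the sham group and 1.44, 0.932 and 9.83 FPKM in the DAC group. DAC replicate 6 stood far above the other 5 animals, and DAC replicate 5 was below sham replicate 2. The highest value was 35.4 times the lowest. The spread within the groups, as the residual SD of log2(FPKM + 1), was 0.98, at percentile 99 of all genes tested. The means were 0.564 ± 0.392 and 4.07 ± 5.0 FPKM (SD, n = 3 each).

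The log2 difference for SLN was 1.27 (SE 0.61, 95% interval -0.16 to 2.71), which was not called, with P = 0.0743 and adjusted P = 0.604 in limma's test and an exact permutation P of 0.200. Without DAC replicate 6 the difference was 0.50 and was not called. SLN passed the filter with exactly 3 animals at or above 1 FPKM, of which 2 were DAC animals. With a pseudocount of 0.1 the difference was 2.07 and was called. The call also appeared with sample weights and without DAC replicate 5.

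Other atrial markers were set beside SLN because the labels do not say which part of the ventricle was sampled. MYL4, the atrial essential light chain, was 2.03, 3.79 and 1.08 FPKM in the sham group and 9.22, 0.780 and 17.6 FPKM in the DAC group. DAC replicates 4 and 6 were the highest for MYL4 as they were for SLN, and DAC replicate 5 was the lowest. KCNJ3, a potassium channel subunit of atrial and nodal cells, was 24.8, 19.9 and 26.5 FPKM in the sham group and 24.0, 22.3 and 21.7 FPKM in the DAC group, and showed no such order. Of the 6 atrial markers, 3 had a row and none was called, and their summed level was 24.7 to 27.9 FPKM in the sham group and 24.0 to 49.1 FPKM in the DAC group. The part of atrial tissue in the SLN values was not tested. SLN lies on chr9:36232968-36242405, on the minus strand (ENSSSCG00000029651).

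RYR2 encodes the cardiac ryanodine receptor, the channel through which the store empties. Its level was 424, 293 and 380 FPKM in the sham group and 308, 234 and 279 FPKM in the DAC group. The 2 highest values were sham animals, but sham replicate 2 lay below DAC replicate 4, so the groups overlapped. The means were 366 ± 66.5 and 274 ± 37.5 FPKM (SD, n = 3 each).

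RYR2 fell by 0.41 on the log2 scale (SE 0.17), which is 0.752 of the sham level with a 95% interval of 0.569 to 0.994. The limma test gave P = 0.0464 and adjusted P = 0.585, and the exact permutation P was 0.200, so the call did not hold after adjustment over all genes. The exact permutation test of 3 with 3 minipigs cannot give a two-sided P below 0.10. The direction was kept in each of 15 alternative settings, and the P was under 0.05 in 7 of them. Scaled to 7 cardiomyocyte markers that had the authors' own symbol, without the 4 rows of TTN named by position, the difference was -0.36, and with the mitochondrially encoded genes left out it was -0.37, and neither was called. The call was also lost without any one of sham replicates 1 and 3 and DAC replicates 5 and 6, with differences of -0.30, -0.37, -0.30 and -0.43 in that order. RYR2 spans 754111 bases on chr14:53652245-54406355, on the minus strand (ENSSSCG00000010142), the longest span of the 9 genes.

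CASQ2 encodes cardiac calsequestrin, the main calcium buffer inside the store. Its level was 107, 112 and 129 FPKM in the sham group and 114, 121 and 128 FPKM in the DAC group. The ranges lay almost on top of each other, and the log2 difference was 0.06 (SE 0.11, P = 0.596 in limma's test, exact permutation P = 0.600). The fold interval of 0.870 to 1.25 was narrower than that of ATP2A2. CASQ2 lies on chr4:104918501-104999787, on the plus strand (ENSSSCG00000006745), and overlaps VANGL1 on the opposite strand, which had 2.51 to 4.53 FPKM.

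TRDN encodes triadin, which anchors calsequestrin to the ryanodine receptor. Its level was 13.9, 21.4 and 18.1 FPKM in the sham group and 23.5, 22.0 and 16.1 FPKM in the DAC group. The 2 highest values were DAC animals, while DAC replicate 6 lay below 2 of the 3 sham animals. The log2 difference was 0.20 (SE 0.20, 95% interval -0.26 to 0.66, P = 0.344 in limma's test, exact permutation P = 0.500), and leaving out single animals moved it between 0.04 and 0.36. TRDN lies on chr1:39180879-39567240, on the plus strand (ENSSSCG00000027613).

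ASPH gives rise to junctin, a partner of triadin at the ryanodine receptor, and also to an aspartyl hydroxylase and to junctate. The gene's FPKM cannot separate these products. Its level was 10.6, 14.4 and 13.4 FPKM in the sham group and 16.6, 12.2 and 17.1 FPKM in the DAC group. DAC replicates 4 and 6 were above all sham animals, and DAC replicate 5 was below 2 of them. The log2 difference was 0.24 (SE 0.17, P = 0.202 in limma's test, exact permutation P = 0.300), and it passed the threshold in 1 of 15 settings, at 0.38 without DAC replicate 5. ASPH lies on chr4:71903359-72107046, on the plus strand (ENSSSCG00000025087).

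HRC encodes the histidine-rich calcium-binding protein, a luminal protein that binds both triadin and the SERCA pump. It was the third most abundant of the 9 genes, at 294, 303 and 336 FPKM in the sham group and 306, 270 and 290 FPKM in the DAC group. DAC replicates 5 and 6 were the lowest of the 6, and DAC replicate 4 lay above 2 sham animals. The log2 difference was -0.11 (SE 0.11, fold interval 0.781 to 1.10), with P = 0.340 in limma's test and an exact permutation P of 0.300. HRC lies on chr6:54337347-54341626, on the minus strand (ENSSSCG00000003156), and has the shortest span of the 9 genes at 4280 bases.

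**Figure D2:**
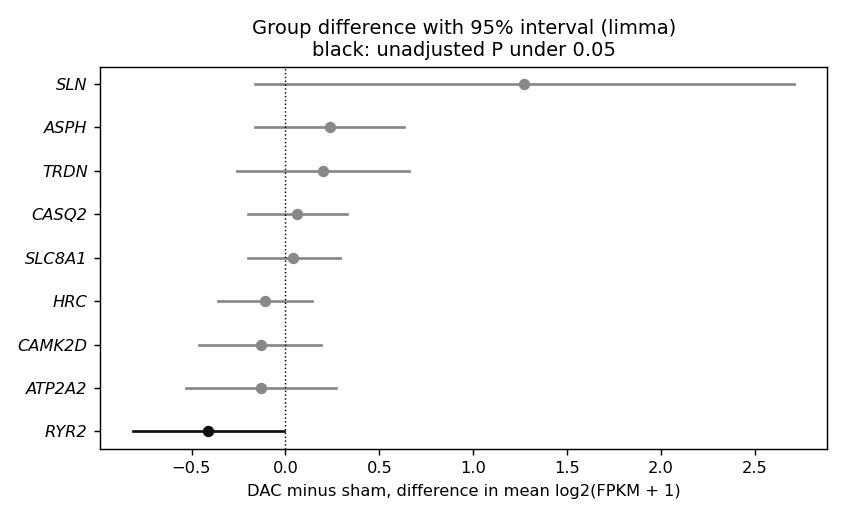
Difference between the groups for each calcium cycling gene, DAC minus sham, as the difference in mean log2(FPKM + 1) with its 95% interval from limma. The interval of RYR2 ends just below 0 and those of the other 8 genes include 0, with the widest interval for SLN.

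SLC8A1 encodes the cardiac sodium-calcium exchanger, the main route by which calcium leaves the cell. Its level was 129, 127 and 143 FPKM in the sham group and 143, 127 and 141 FPKM in the DAC group. It was the steadiest of the 9 genes, with a highest value 1.13 times the lowest. The means were 133 ± 8.91 and 137 ± 8.52 FPKM (SD, n = 3 each), and the log2 difference was 0.04 (SE 0.10, P = 0.705 in limma's test, exact permutation P = 0.80). The fold interval was 0.868 to 1.22. SLC8A1 lies on chr3:99897162-100245140, on the plus strand (ENSSSCG00000036418).

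CAMK2D encodes the delta subunit of calcium/calmodulin-dependent kinase II, which phosphorylates phospholamban and the ryanodine receptor. Its level was 84.1, 76.2 and 81.1 FPKM in the sham group and 80.3, 60.3 and 81.1 FPKM in the DAC group. Only DAC replicate 5 stood apart, below the other 5 animals, and DAC replicate 6 equalled sham replicate 3 at this precision. The log2 difference was -0.13 (SE 0.14, P = 0.370 in limma's test, exact permutation P = 0.600), and it was 0.00 without DAC replicate 5. CAMK2D lies on chr8:108710660-109228901, on the plus strand (ENSSSCG00000009123), and overlaps ARSJ on the same strand, which had 0.641 to 2.01 FPKM.

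The order of the levels was much the same in the 6 minipigs. ATP2A2, with a mean over the 6 minipigs of 436 FPKM, was above RYR2 with 320 FPKM in 6 of 6 animals, although the ranges overlapped. RYR2 and HRC, with 300 FPKM, could not be put in order, since RYR2 was the higher in 3 of 6 animals. A clear gap separated HRC from SLC8A1 with 135 FPKM. SLC8A1 was above CASQ2 with 118 FPKM in each of the 6 animals, with ranges that overlapped, and CAMK2D at 77.2 FPKM lay below both. TRDN at 19.2 FPKM was above ASPH at 14.0 FPKM in 5 of 6 animals, and SLN at 2.31 FPKM was below all the others.

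**Figure D3:**
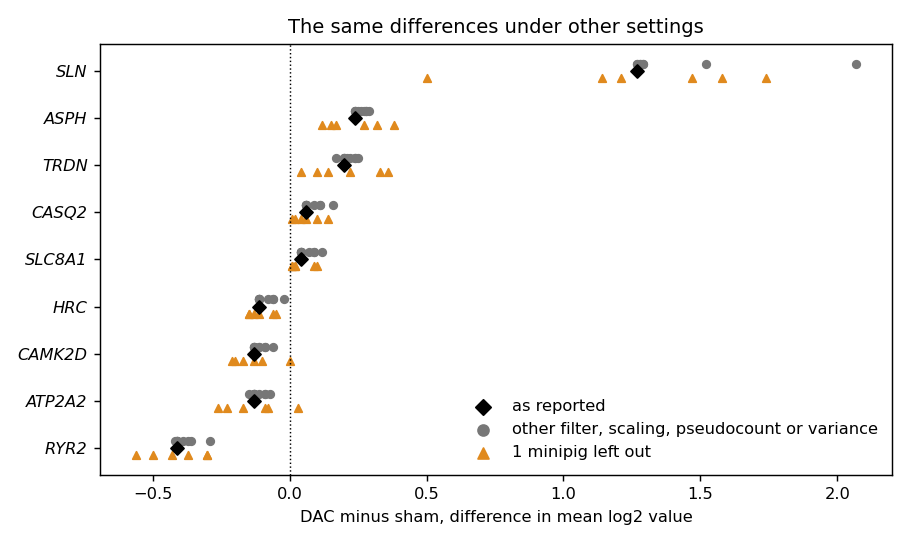
Difference between the groups for each calcium cycling gene as reported (diamonds), under another filter, scaling, pseudocount, variance or weighting (circles), and with 1 minipig left out (triangles), on the log2 scale. RYR2 stayed below 0 at each setting, SLN stayed above 0 between 0.50 and 2.07, and ATP2A2 and CAMK2D reached 0 or crossed it when 1 DAC animal was left out.

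Ratios within an animal compare the transcripts of the pump, the exchanger, the channel and its buffer without regard to the scaling of the samples. The ratio of ATP2A2 to SLN was 1738, 391 and 1205 in the sham group and 230, 528 and 44.1 in the DAC group. The sham animals had the 2 highest ratios, but sham replicate 2 lay below DAC replicate 5. The mean log2 ratio differed by -2.42, with an exact permutation P of 0.200 and 0.300 after Benjamini-Hochberg adjustment over the 3 ratios. SLN, the lower part of this ratio, was at 1.44 FPKM or less in 5 of the 6 animals, and the difference was -1.41 with 1 FPKM added to each gene.

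The ratio of RYR2 to CASQ2, the release channel to its luminal buffer, was 3.96, 2.62 and 2.96 in the sham group and 2.71, 1.93 and 2.18 in the DAC group. Only sham replicate 2 and DAC replicate 4 crossed. The log2 difference was -0.47, with an exact permutation P of 0.200 and an adjusted P of 0.300, and it ran from -0.61 to -0.30 with 1 animal left out.

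The ratio of SLC8A1 to ATP2A2, extrusion from the cell to reuptake into the store, was 0.268, 0.321 and 0.295 in the sham group and 0.433, 0.259 and 0.325 in the DAC group. DAC animals held both ends of the range, and the log2 difference of 0.17 had an exact permutation P of 0.600 before and after adjustment. Without DAC replicate 4 it was -0.02.

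**Figure D4:**
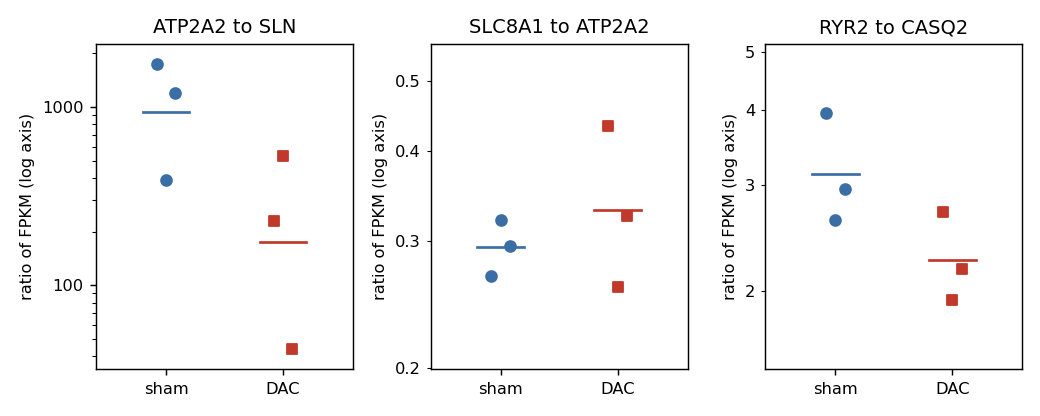
Ratio of FPKM within each minipig for 3 pairs of calcium cycling genes, on log axes, with sham animals on the left and DAC animals on the right of each panel and bars at the geometric means. The groups overlapped in each panel, with the widest spread for ATP2A2 to SLN, from 44.1 to 1738.

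A further 68 genes of calcium handling were listed in 5 groups by role, and 56 of them had a row. JPH2 and CACNA1C had 2 rows each, which gave 58 rows, and the rows of STAC3 and CACNA1G did not pass the filter. Of the 56 rows tested, 3 were called higher and 1 lower, against 3.25% and 5.27% of all genes tested, and the median difference was -0.02. The group medians ran from -0.20 for the release channel and its junction to 0.03. In that group 8 of 10 rows were lower on average in DAC animals, of which 2 belong to the same gene, JPH2, and none was called. Both JPH2 rows and those of FKBP1A and SPEG had no symbol from the authors and were named by position. Over all genes tested, 5884 of 11029 were lower on average.

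In the group of uptake and its regulation, 1 of 8 rows was called. PPP1R3A, which targets protein phosphatase 1 to glycogen and to the sarcoplasmic reticulum, was 6.32, 6.97 and 6.09 FPKM in the sham group and 7.95, 10.9 and 9.19 FPKM in the DAC group. Its groups did not overlap, and it rose by 0.46 on the log2 scale (SE 0.13), with adjusted P = 0.500 in limma's test. It was called in 15 of 15 alternative settings, at unadjusted P. S100A1, a calcium-binding protein known to act on the SERCA pump and the ryanodine receptor, was 599, 593 and 664 FPKM in the sham group and 418, 188 and 535 FPKM in the DAC group. Every DAC value lay below every sham value, with a log2 difference of -0.83 that was not called (adjusted P = 0.592 in limma's test). Without DAC replicate 5, which held the lowest value, the difference was -0.38 and was called, and in all it was called in 5 of 15 alternative settings. S100A1 overlaps CHTOP, so reads may be shared between the rows. CHTOP was 27.3, 27.3 and 23.6 FPKM in the sham group and 25.8, 26.5 and 26.5 FPKM in the DAC group. The part of shared reads in the S100A1 values was not tested.

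In the release group, the smallest unadjusted P belonged to the 2 FK506-binding proteins that associate with ryanodine receptors, FKBP1B and FKBP1A. The FKBP1A row was named by position only. FKBP1B was 2.85, 0.993 and 3.80 FPKM in the sham group and 1.12, 0.879 and 1.57 FPKM in the DAC group, with a log2 difference of -0.62 (adjusted P = 0.629 in limma's test). FKBP1A was 11.9, 9.19 and 12.8 FPKM in the sham group and 8.43, 9.84 and 9.14 FPKM in the DAC group, with a log2 difference of -0.27 (adjusted P = 0.629 in limma's test). In both, sham replicate 2 was the lowest sham animal and the groups overlapped, as in RYR2.

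In the sarcolemmal group, 1 of 9 rows was called. ATP2B1, a plasma membrane calcium pump, was 2.25, 2.11 and 2.07 FPKM in the sham group and 2.96, 3.27 and 2.41 FPKM in the DAC group. It rose by 0.30 on the log2 scale, with adjusted P = 0.584 in limma's test, and the groups were separate. The call held in 7 of 14 alternative settings, and it was lost with quantile normalization, with sample weights and without any one of sham replicates 1 to 3 and DAC replicates 4 and 5. The related pump ATP2B4 was 20.2, 20.9 and 19.8 FPKM in the sham group and 23.1, 26.4 and 21.2 FPKM in the DAC group. Those groups were separate as well, but the difference of 0.20 was not called (adjusted P = 0.645 in limma's test).

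Among calmodulin, kinases and phosphatases, 1 of 17 rows was called. CAMK2B, the beta subunit of the kinase, was 21.9, 17.1 and 15.8 FPKM in the sham group and 14.0, 15.5 and 9.97 FPKM in the DAC group. It fell by 0.46 on the log2 scale, with adjusted P = 0.585 in limma's test, and the call held in 6 of 15 alternative settings. It was lost with each of the 4 other scalings, with each gene's own variance and without any one of sham replicates 1 and 2 and DAC replicates 4 and 6. Reads may be shared with an overlapping row, so its values are uncertain. CAMK2G, the gamma subunit, was 16.8, 8.58 and 16.0 FPKM in the sham group and 6.19, 9.53 and 9.41 FPKM in the DAC group, with a log2 difference of -0.63 that was not called (adjusted P = 0.592 in limma's test). Sham replicate 2 was the only sham animal within the DAC range.

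Among the IP3 receptors and the genes of store filling, 1 of 12 rows was called. TMCO1, a calcium channel of the endoplasmic reticulum that opens when the store is overfilled, was 6.56, 7.37 and 7.13 FPKM in the sham group and 8.88, 7.96 and 8.54 FPKM in the DAC group. It rose by 0.24 on the log2 scale, with adjusted P = 0.586 in limma's test. The call held in 9 of 15 alternative settings, and it was lost with no filter and without any one of sham replicates 1 to 3 and DAC replicates 4 and 6. ITPR2, the main IP3 receptor of cardiomyocytes, was 8.84, 10 and 9.20 FPKM in the sham group and 11.8, 10.5 and 11.2 FPKM in the DAC group. The groups of both genes were separate, but the ITPR2 difference of 0.23 was not called (adjusted P = 0.595 in limma's test). It was called in 6 of 15 alternative settings, among them the 4 other scalings of the samples, with differences up to 0.27.

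**Figure D5:**
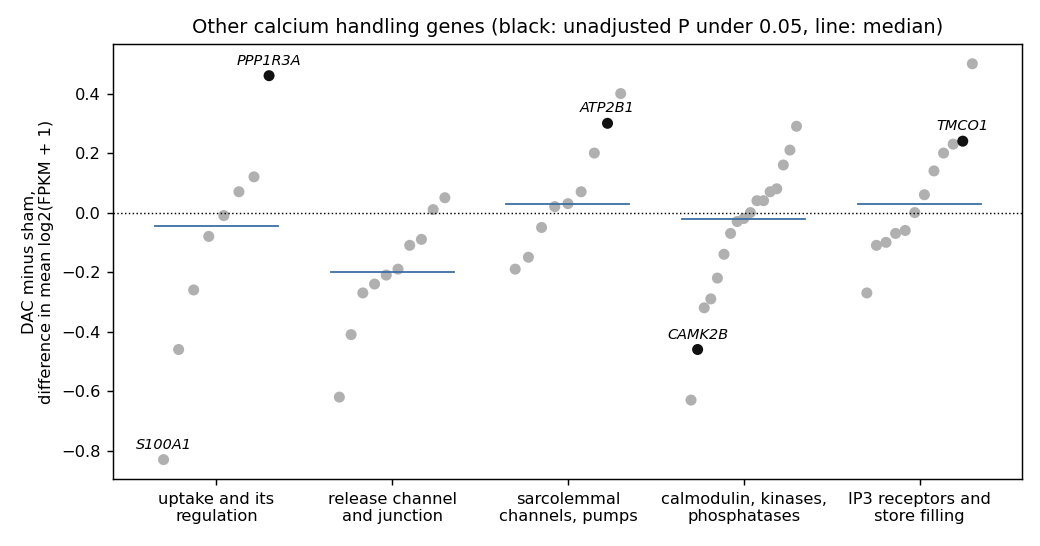
Difference between the groups for 56 rows of other calcium handling genes in 5 groups by role, DAC minus sham, in mean log2(FPKM + 1), with a line at each group's median and black points at an unadjusted P under 0.05 in limma's test. The 4 black points are PPP1R3A, ATP2B1 and TMCO1 above 0 and CAMK2B below 0, and the median of the release channel group lies at -0.20.

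The genes whose levels ran closest to those of ATP2A2 over the 6 minipigs were VPS28 (Pearson r = 0.993), OSBPL11 (0.984), SNRPC (0.981), HDLBP (0.978) and CTSZ (0.977), out of 3454 genes with a symbol and a mean of at least 10 FPKM. VPS28, an endosomal sorting protein, was 12.3, 10.5 and 12.2 FPKM in the sham group and 8.83, 12.6 and 10.9 FPKM in the DAC group. DAC replicate 4 was the lowest and DAC replicate 5 the highest for both VPS28 and ATP2A2. The correlations share the same 6 libraries and are given as a description.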

How the data were processed

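RNA was sequenced from ventricular tissue of 3 sham and 3 DAC minipigs, with 3 µg of RNA per library. The authors deposited FPKM for 13288 genes, of which 12476 are protein-coding, with 1 column per minipig, and the highest sample of each gene has at least 0.5001 FPKM. HISAT2 and susScr11 are named in the submitters' processing notes, and the quantification program and the annotation release are not given in the sources used here. The summed FPKM was 281377 to 308771 per minipig. Depth is unknown, since no whole-read steps were visible (6 genes of at least 6520 compared shared the most frequent log2 ratio), so precision comes from the spread between minipigs alone.

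Symbols came from the table, 520 rows without one were named from a gene identifier table, and 9 rows of the gene lists were named because at least 80% of the row lay inside exactly 1 RefSeq protein-coding gene of Sscrofa11.1, a step chosen after seeing the file. The members and lists were chosen with earlier results of these data known.

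limma 3.58.1 in R 4.3.3 compared log2(FPKM + 1) between the groups, with a variance trend and Benjamini-Hochberg adjustment over the 11029 genes tested. No covariate was used and no batch is given. Ratios were compared by a two-sided exact permutation test over the 6 minipigs and adjusted over the 3 computed. Figures were drawn with matplotlib 3.10.9 under Python 3.11.15. The steps were tested on simulated data. Named genes were all members, the listed genes with P under 0.05, the 2 smallest P of each list, and the 5 genes most correlated with ATP2A2. As alternatives, the fit was repeated without the filter, with a minimum of 5 FPKM, a pseudocount of 0.1, median scaling, quantile normalization, the mitochondrially encoded genes left out, cardiomyocyte marker scaling (7 genes, without TTN), each gene's own variance, sample weights, each minipig left out and, for ratios, FPKM + 1 and a difference of medians. Marker lists covered cardiomyocyte, atrial, skeletal muscle, fibroblast, endothelial, smooth muscle, leukocyte, red blood cell and adipocyte genes.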

Additional observations from a re-analysis of the deposited data

How the results depend on the processing

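Across 15 alternatives, the number of genes called higher was 358 as reported, 165 at a minimum of 5 FPKM, where fewer genes are tested, and 241 to 470 with 1 minipig left out. The number called lower was 581 as reported, 374 with cardiomyocyte marker scaling, and 359 to 674 with 1 minipig left out, the lowest counts being 359 without sham replicate 1 and 387 without sham replicate 3. Scaling also moved the split of higher against lower calls, to 503 against 374 with cardiomyocyte marker scaling, 500 against 407 without the mitochondrially encoded genes, 429 against 479 with median scaling and 418 against 469 with quantile normalization. At an adjusted P under 0.05, limma called 1 gene without sham replicate 3, 1 without DAC replicate 6, and 0 in each other setting. Calcium cycling genes called higher numbered 0 as reported, 1 with a pseudocount of 0.1 (SLN), 1 with sample weights (SLN) and 0 to 2 with 1 minipig left out (SLN and ASPH without DAC replicate 5). Those called lower numbered 1 as reported (RYR2), 0 with quantile normalization (difference -0.29), the mitochondrially encoded genes left out, cardiomyocyte marker scaling or each gene's own variance, and 0 to 1 with 1 minipig left out. With 1 minipig left out, ATP2A2 ran from -0.26 to 0.03 (0.03 without DAC replicate 4) and CAMK2D from -0.21 to 0.00 (0.00 without DAC replicate 5). Other calcium handling genes called higher numbered 3 as reported, 2 with no filter, 2 at a minimum of 5 FPKM, 5 with each gene's own variance and 1 to 3 with 1 minipig left out, with 1 without DAC replicate 4, sham replicate 1 or sham replicate 3. Those called lower numbered 1 as reported, 2 with no filter or sample weights, 0 with quantile normalization, the mitochondrially encoded genes left out or each gene's own variance, and 0 to 3 with 1 minipig left out, with 3 without sham replicate 2. The ratios kept their direction except SLC8A1 to ATP2A2, which ran from -0.02 to 0.35 with 1 minipig left out, and ATP2A2 to SLN ran from -3.22 to -1.43. SLN was not tested at a minimum of 5 FPKM. The cause of these shifts was not tested. No paired analysis was made, because different minipigs were randomly assigned to the groups and no pairing is given. Read depth is unknown, and 3 minipigs per group cannot reach an exact permutation P below 0.10.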

Other observations

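The gene of another subunit of the calcium/calmodulin-dependent kinase, chosen after its values were seen, had a high level in this tissue. A gene's FPKM cannot separate its products, so the level of the kinase subunit itself was not tested. CAMK2A, best known from neurons, was 161, 218 and 210 FPKM in the sham group and 185, 116 and 175 FPKM in the DAC group, above CAMK2D in each of the 6 minipigs. Its log2 difference was -0.32, which was not called (adjusted P = 0.682 in limma's test).

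Markers of other cell types gave the following levels. Smooth muscle markers summed to 133 to 161 FPKM in the sham group and 160 to 180 FPKM in the DAC group, with 1 of 6 called higher. Endothelial markers summed to 101 to 144 and 99.4 to 141 FPKM, with 2 of 6 called higher and 1 lower. Leukocyte markers summed to 42.9 to 45.5 and 34.7 to 47.5 FPKM, with 1 of 5 tested called lower. Red blood cell markers summed to 11.2 to 38.5 and 5.86 to 38.2 FPKM with none called, and adipocyte markers to 0.111 to 0.616 and 0.461 to 1.34 FPKM with none tested. Of the 8 skeletal muscle markers only CKM, which the heart also expresses, had a row, at 421 to 435 FPKM in the sham group and 323 to 417 FPKM in the DAC group, and it was not called.

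The position of NPPA, the atrial natriuretic peptide gene, lies inside the row named NPPB, which was 15.5, 43.9 and 43.4 FPKM in the sham group and 80.6, 93.3 and 107 FPKM in the DAC group, so that the 2 peptides cannot be told apart there. The row named MYH7 carries the symbol MYH6 in the table of gene identifiers, and it was 1873 to 1935 FPKM in the sham group and 1781 to 1927 FPKM in the DAC group.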
